A study of Danio rerio with 8 samples.

Results

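The 10 genes described here encode enzymes that remove peroxides and superoxide, together with a thioredoxin that supplies peroxiredoxins with electrons: prdx1, prdx2, prdx3, prdx5, prdx6, txnb, gpx1a, gpx4a, sod1 and cat. They were chosen with earlier results of these data known. Their probes were taken by symbol, as every probe that the platform annotation assigns to one of these names. This gave 14 of the 43603 probes on the array. Probes of a gene were averaged, so the 10 genes are 10 of 35434 features tested. The genes prdx3, prdx5, gpx4a and sod1 had 2 probes each and the other 6 had 1, and no member was lost to a filter, since none was applied.

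Superoxide that leaks from respiration is turned into hydrogen peroxide by superoxide dismutases, and the peroxide is then reduced by catalase, glutathione peroxidases and peroxiredoxins. Peroxiredoxins use a reactive cysteine, which thioredoxin reduces again with electrons that come from NADPH. Glutathione peroxidases draw on glutathione instead, and several of them carry selenocysteine at the active site. Liver is rich in catalase-bearing peroxisomes and in mitochondria, and makes much of the body's glutathione. The roles given below are mostly known from mammals.

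Liver RNA of zebrafish (Danio rerio) was compared between fish held at 18, 26 and 34 °C. On day 28 each temperature had 2 RNA samples, called biological replicates 1 and 2, and 1 more was taken at 26 °C on day 4. The labels give no strain, age or sex and do not say how many fish made up a sample, so p-values measure only the spread between these samples. Each of 8 Agilent 2-colour arrays carried a Cy5-labelled and a Cy3-labelled sample and gave their log2 ratio per probe, and the arrays joined the 7 samples in a loop. By its title, the series served to select temperature probes for a custom array.

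The ratios are taken here with the Cy5 sample on top. That is likely, since array titles name the Cy5 sample first, but no source states it. If they run the other way, every sign below turns, while sizes and p-values stay. From the 8 ratios a level was fitted for each sample, on the log2 scale relative to the mean of the 7 samples, with a term for dye. A level is thus a place within one gene's range and cannot be set against the level of another gene. Differences of mean levels were tested with limma over all features, and a gene is called where its adjusted p is below 0.05. Errors written ± are limma's moderated standard errors, with n = 2 samples against 2.

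No intensities were at hand, so whether a probe, or a marker of liver tissue, stood above background could not be checked. The SD over all features of replicate 1 minus replicate 2 was 0.273 at 18 °C, 0.226 at 26 °C and 0.278 at 34 °C. Over the 10 genes the median size of that difference was 0.521 at 18 °C, 0.322 at 26 °C and 0.305 at 34 °C. Replicate 2 at 18 °C held the lowest level of 9 of the 10 genes, all but prdx1. The share of all features that were lowest in that sample was not computed.

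At 34 °C against 18 °C, prdx2, txnb and gpx1a rose by 2.88, 2.66 and 2.501 on the log2 scale, or 7.36-fold, 6.33-fold and 5.66-fold. The other 7 genes were not called. Among them gpx4a, cat, prdx6 and sod1 had positive differences of at least 2-fold, prdx5 and prdx3 had smaller positive ones, and prdx1 had a negative one. The 3 called genes compare with 172 features called in the positive direction among all 35434, or 0.485%, and 348 called in either direction, or 0.982%. The groups did not overlap for 9 of the 10 genes, 8 with higher and 1 with lower levels at 34 °C, where 36.9% of all features had groups that did not overlap. Of the 15548 features with a gene symbol, 128 were called in the positive and 151 in the negative direction. Groups did not overlap for 3101 of them with higher and 4168 with lower levels at 34 °C. These shares are higher than those of all features. The median difference of the 10 genes was 1.58, against 0.00 over all features. Since the genes were chosen with earlier results of these data known, this contrast is only a description.

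None of the 3 genes remained called without either sample of 18, 26 or 34 °C on day 28, or without any of 7 of the 8 arrays, although all 3 differences stayed positive. Without the remaining array, which joined replicate 2 of 26 °C with replicate 1 of 34 °C, limma still called gpx1a (adjusted p = 0.0407) and also prdx5 (adjusted p = 0.0356), but not prdx2 or txnb. Limma on the arrays directly, which ignores that arrays share RNA samples, called 7 of the 10 genes and 8.45% of all features, adding prdx5, gpx4a, sod1 and, in the negative direction, prdx1. In the 2-step fit 8 of the 10 had an unadjusted p below 0.05, against 13.9% of all features. Among the 15548 features with a gene symbol, 3634 had such a p and 2359 were called on the arrays directly. These are higher shares than those of all features.

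**Figure D1:**
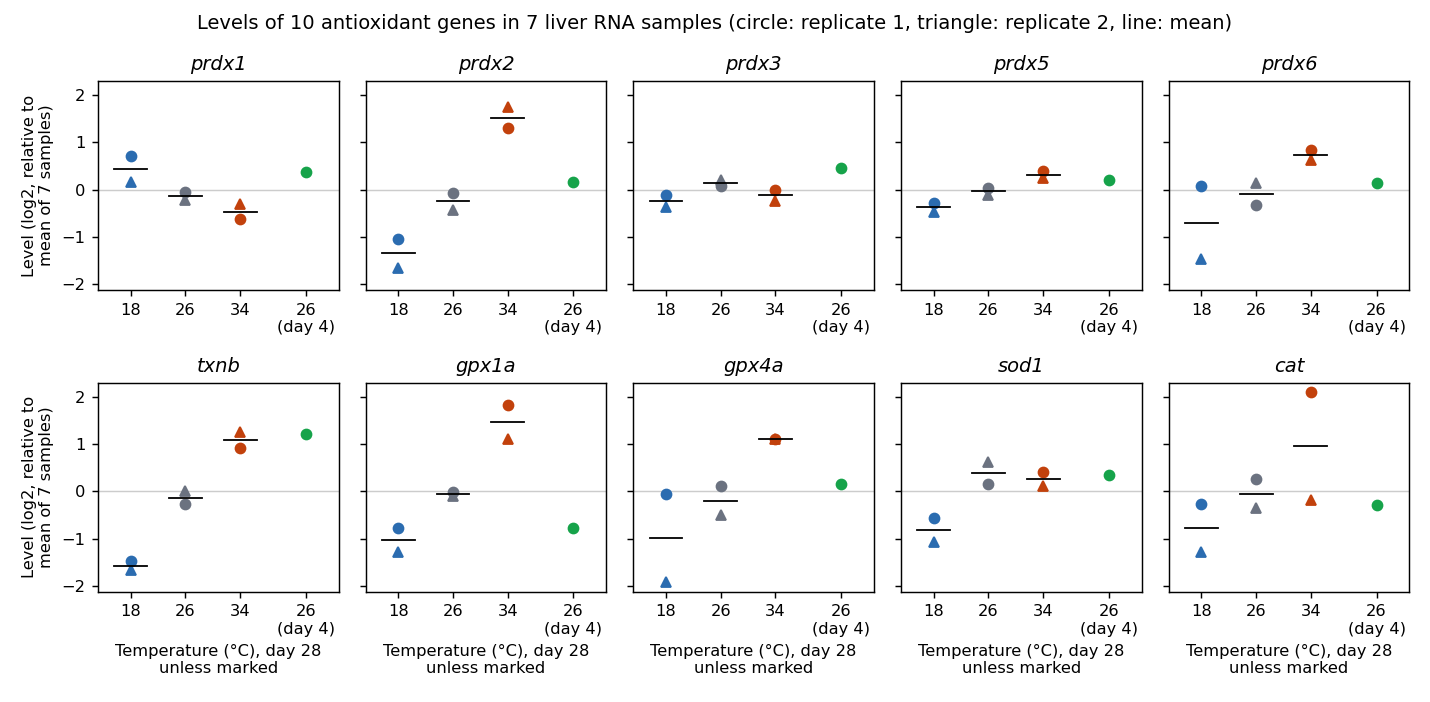
Levels of the 10 genes in the 7 RNA samples. Each panel is 1 gene, the x axis is temperature in °C and the y axis the log2 level relative to the mean of the 7 samples. Circles are replicate 1, triangles replicate 2, and lines the mean of the pair, and the circle at the right is the day 4 sample. For prdx2, txnb and gpx1a the 18 °C pair lies below the 26 °C pair and that below the 34 °C pair, while prdx1 runs the other way and the cat pair at 34 °C is split between 2.0996 and -0.19.

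Markers of some cell types differed between the same samples. Of 25 hepatocyte markers 24 had positive differences at 34 °C against 18 °C and 1, the transferrin gene tfa, was called. An unadjusted p below 0.05 was reached by 21 of them and 16 were called on the arrays directly, where all features had 13.9% and 8.45%. Their median difference was 1.56, close to the 1.58 of the antioxidant genes. The hepatocyte median was 1.03 and 0.37 in the replicates of 34 °C, against -0.45 and -1.03 in those of 18 °C. Oocyte markers went the opposite way. All 24 measured were negative, 5 were called (zp3a.1, zp3c, nanog, mos and 42sp43), 23 had an unadjusted p below 0.05 and 22 were called on the arrays directly. The oocyte median was -1.35 and -0.76 at 34 °C, against 0.82 and 1.67 at 18 °C. Replicate 2 at 18 °C, where 9 of the 10 antioxidant genes were lowest, was also lowest for hepatocyte and highest for oocyte markers.

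Exocrine pancreas markers had a median difference of 1.56, with 23 of 25 positive and 0 called by limma, 4 of them with an unadjusted p below 0.05 and 1 called on the arrays directly, against 13.9% and 8.45% of all features. Their level split the 26 °C pair of day 28, at 0.76 and -1.23. Erythrocyte markers, read here because red cells of mammals hold much peroxiredoxin and catalase, had sample medians between -0.03 and 0.02 and a median difference of 0.01. The list includes embryonic globin genes, and whether its genes stood above background was not checked. Single erythrocyte markers ranged more widely, with differences from -0.58 to 0.45. The globin gene hbba2 was at 0.79 in replicate 1 of 34 °C, and hbaa2 was at -0.73 in replicate 2 of 34 °C. Biliary, stellate and endothelial markers had a median difference of 0.05, with 2 of 22 at an unadjusted p below 0.05. Leukocyte markers had a median difference of 0.08, with 4 of 18 at such a p. On the arrays directly 0 and 4 were called, and the 2-step fit called 0 in both lists. In whole tissue, fewer cells of a type and less RNA per cell cannot be told apart. The part of these markers in the antioxidant values was not tested.

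**Figure D2:**
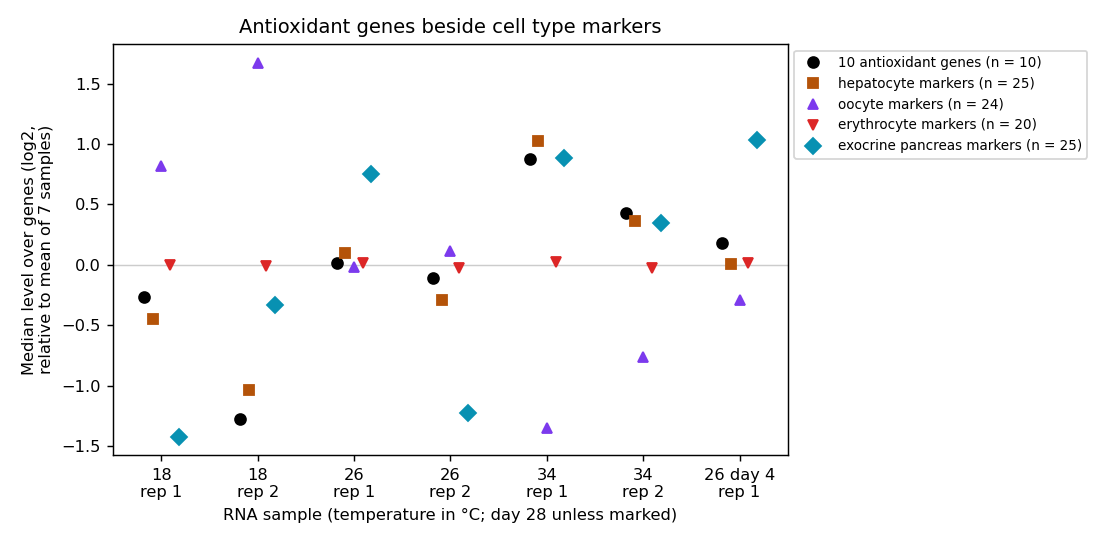
Median level of the 10 antioxidant genes and of 4 marker lists in each RNA sample, on the log2 scale relative to the mean of the 7 samples. The antioxidant median (black) and the hepatocyte median both have their lowest point in replicate 2 at 18 °C, at -1.28 and -1.03, and their highest in replicate 1 at 34 °C, at 0.88 and 1.03. Oocyte medians run opposite, and the medians of the erythrocyte list lie between -0.03 and 0.02.

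The cytosolic peroxiredoxin prdx2 had the largest difference of the group. Its levels were -1.05 and -1.66 at 18 °C, -0.07 and -0.44 at 26 °C, and 1.303 and 1.75 at 34 °C on day 28. The 3 pairs did not overlap and followed the order of temperature. The mean was 1.53 at 34 °C against -1.35 at 18 °C, a difference of 2.88 ± 0.28 (limma adjusted p = 0.0414, 95% confidence interval 2.15 to 3.62). Relative to 26 °C, the difference was 1.78 ± 0.28 for 34 °C (adjusted p = 0.243) and -1.10 ± 0.28 for 18 °C (adjusted p = 0.725), and neither was called.

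The arrays behind prdx2 were uneven. The array that set replicate 1 of 34 °C against replicate 1 of 18 °C read 3.17 for 34 over 18 °C. Replicate 2 of 34 °C over replicate 2 of 26 °C read 3.005, whereas replicate 1 of 34 °C over the 26 °C replicates 1 and 2 read 0.99 and 0.61. The 34 °C sample carried Cy5 on the arrays with the higher readings and Cy3 on the others, and the fitted dye term of prdx2 was 0.69. Its largest array residual, 0.44, was the highest of the 10 genes, where the median over all features was 0.04. Those of cat (0.43) and prdx6 (0.41) were close to it. Without the array at 3.005, the difference of 34 °C from 26 °C turned to -0.19, and that of 34 °C from 18 °C was 1.70. Without the array at 3.17, 18 °C against 26 °C turned to 0.30.

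The closely related prdx1, also a cytosolic peroxiredoxin, ran the other way. Its levels were 0.70 and 0.16 at 18 °C, -0.05 and -0.23 at 26 °C, and -0.63 and -0.31 at 34 °C. The pairs again did not overlap, but here 18 °C was highest and 34 °C lowest. The difference was -0.90 ± 0.22 at 34 °C against 18 °C (limma adjusted p = 0.160), which was not called. It was -0.33 ± 0.22 at 34 °C and 0.57 ± 0.22 at 18 °C, each against 26 °C (adjusted p = 0.862 and 1.00). The sign at 34 °C against 18 °C was negative in all 21 alternative fits that gave a value for it, from -1.25 to -0.60. Some of these fits, such as the median over probes, cannot change the difference. The array of 34 over 18 °C read -1.24, those of 34 over 26 °C read -0.53, 0.01 and -0.58, and those of 18 over 26 °C read 0.43 and 0.17.

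The mitochondrial and peroxisomal peroxiredoxin prdx5 had small but tight values. Its levels were -0.28 and -0.47 at 18 °C, 0.04 and -0.12 at 26 °C, and 0.39 and 0.24 at 34 °C. The pairs did not overlap and followed the order of temperature. The difference at 34 °C against 18 °C was 0.69 ± 0.10, or 1.61-fold, with a limma adjusted p of 0.0679. Its 2 probes had the same signs and different sizes, 1.13 and 0.25 for that difference. Against 26 °C it had 0.35 ± 0.10 at 34 °C (adjusted p = 0.401) and -0.34 ± 0.10 at 18 °C (adjusted p = 0.868). The array of 34 over 18 °C read 0.70, those of 34 over 26 °C read 0.13, 0.39 and 0.60, and those of 18 over 26 °C read -0.58 and -0.29. All 6 had the sign of the fitted values, but they share samples and are not independent.

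The remaining peroxiredoxins were less clear. For prdx6, whose enzyme reduces oxidized phospholipids, levels were 0.07 and -1.48 at 18 °C, -0.32 and 0.14 at 26 °C, and 0.83 and 0.62 at 34 °C. The 34 °C pair lay above all others, and the 18 °C samples lay far apart. Its difference at 34 °C against 18 °C was 1.43 ± 0.54 (limma adjusted p = 0.351). Against 26 °C it had 0.82 ± 0.54 at 34 °C (adjusted p = 0.860) and -0.62 ± 0.54 at 18 °C (adjusted p = 1.00). The array of 34 over 18 °C read 0.65, those of 34 over 26 °C read 0.85, 0.37 and 1.09, and those of 18 over 26 °C read -1.91 and -0.87. Both arrays of 18 over 26 °C carried replicate 2 of 18 °C. Without replicate 2 at 18 °C, the value of 18 °C against 26 °C turned to 0.16, against -0.62 with it.

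The mitochondrial prdx3 had the smallest difference of the 10 genes. Levels were -0.12 and -0.36 at 18 °C, 0.07 and 0.21 at 26 °C, and -0.0022 and -0.24 at 34 °C, so the 26 °C pair was highest and the other pairs overlapped. At 34 °C against 18 °C it gave 0.12 ± 0.13 (limma adjusted p = 0.850, 95% confidence interval -0.21 to 0.45). Against 26 °C it had -0.26 ± 0.13 at 34 °C (adjusted p = 0.734) and -0.38 ± 0.13 at 18 °C (adjusted p = 0.976). Its probes did not follow each other. Tested as features, they gave 0.16 ± 0.31 and 0.08 ± 0.29 at 34 °C against 18 °C. The error of their average is thus smaller than that of either probe. On the first probe the 26 °C pair was at -0.28 and 0.05, not above replicate 1 at 18 °C (0.11). In the 26 °C sample of day 4 one read 1.11 and the other -0.22, and their differences at 34 °C against 26 °C were -0.02 and -0.50. The array of replicate 2 at 34 °C over replicate 2 at 26 °C read 0.10 on the first probe and -1.36 on the second.

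**Figure D3:**
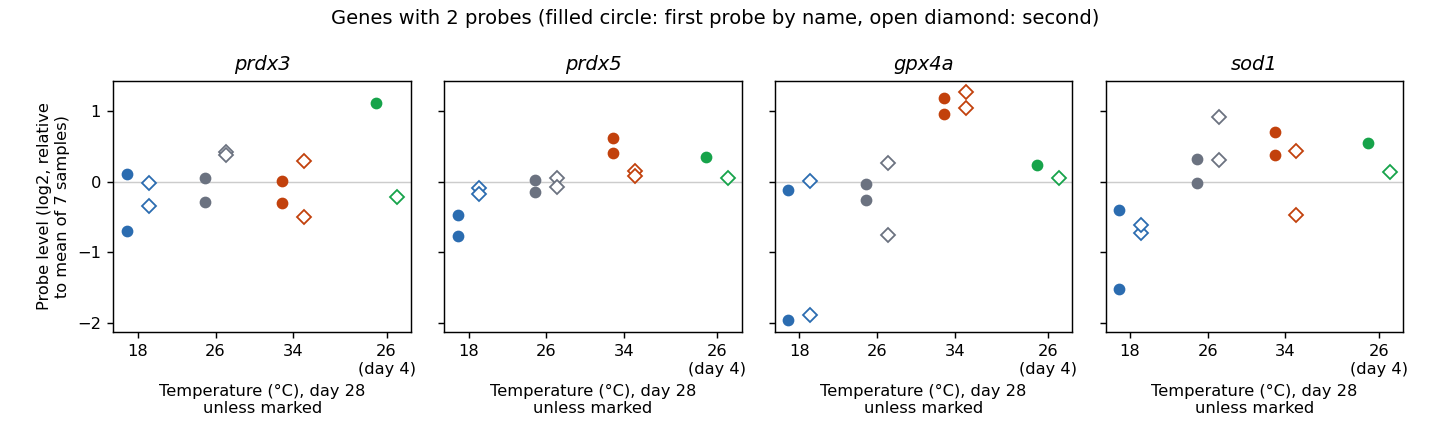
Levels of the single probes of the genes with 2 probes, in the 7 RNA samples, on the log2 scale relative to the mean of the 7 samples. Filled circles are the first probe and open diamonds the second, and the x axis is temperature in °C. The gpx4a probes lie together, and the second prdx5 probe has the same order of the day 28 samples over a smaller range. The prdx3 probes part in every sample and the sod1 probes in several.

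The thioredoxin gene txnb, whose product hands electrons to peroxiredoxins, had the smallest p-value of the group and rank 30 by p among all features at 34 °C against 18 °C. Its levels were -1.48 and -1.67 at 18 °C, -0.27 and 0.01 at 26 °C, and 0.92 and 1.26 at 34 °C. The pairs were close and did not overlap. The mean was 1.09 at 34 °C against -1.57 at 18 °C, a difference of 2.66 ± 0.16 (limma adjusted p = 0.0299, 95% confidence interval 2.24 to 3.08). Against 26 °C, the value was 1.22 ± 0.16 at 34 °C (adjusted p = 0.213) and -1.44 ± 0.16 at 18 °C (adjusted p = 0.390), neither called.

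Single arrays of txnb pointed the same way throughout in sign, but differed in size. Its largest array residual was 0.29, where the median over all features was 0.04, and its fitted dye term was -0.36. Replicate 1 of 34 °C over replicate 1 of 18 °C read 1.96. The 3 arrays of 34 °C over 26 °C read 1.35, 0.81 and 1.57, and the 2 arrays of 18 °C over 26 °C read -1.52 and -1.55. Both arrays of 18 °C over 26 °C carried replicate 2 of 18 °C, and several of the others shared replicate 1 of 34 °C. The readings are thus not independent. Leaving out 1 sample or 1 array kept the difference of 34 °C from 18 °C between 2.00 and 3.44. In every fit without 1 array the limma adjusted p-value was above 0.05. The fit without the day 4 sample, which is alone in its group, repeats the full fit. Thioredoxin was the only member called when single probes were tested as features (adjusted p = 0.0364).

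Among the glutathione peroxidases, the cytosolic gpx1a had levels of -0.78 and -1.28 at 18 °C, -0.02 and -0.10 at 26 °C, and 1.82 and 1.12 at 34 °C. Its pairs did not overlap and the 26 °C pair was tight. The mean was 1.47 at 34 °C against -1.03 at 18 °C, a difference of 2.501 ± 0.29 (limma adjusted p = 0.0494, 95% confidence interval 1.75 to 3.26). The 34 °C value against 26 °C was 1.53 ± 0.29 (adjusted p = 0.267) and the 18 °C value was -0.97 ± 0.29 (adjusted p = 0.857).

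For gpx1a the array of 34 over 18 °C read 2.38, those of 34 over 26 °C read 1.94, 0.99 and 2.25, and those of 18 over 26 °C read -1.08 and -1.36. Its largest array residual was 0.13. The call lay at the threshold, since the adjusted p was 0.0597 without the dye term and 0.0519 with the median in place of the mean over the probes of each gene, which left its own value at 2.501. The paralogue gpx1b gave 0.59 ± 0.16 at 34 °C against 18 °C (adjusted p = 0.209). Whether probes of the 2 paralogues share signal was not tested.

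The phospholipid hydroperoxide peroxidase gpx4a had levels of -0.05 and -1.93 at 18 °C, 0.12 and -0.51 at 26 °C, and 1.11 in both samples at 34 °C. Both 34 °C samples lay above all others, and the 18 °C samples were far apart. The difference at 34 °C against 18 °C was 2.102 ± 0.65, or 4.29-fold, with a limma adjusted p of 0.252. Against 26 °C it had 1.31 ± 0.65 at 34 °C (adjusted p = 0.752) and -0.79 ± 0.65 at 18 °C (adjusted p = 1.00). The array of 34 over 18 °C read 1.67, those of 34 over 26 °C read 0.46, 2.13 and 1.13, and those of 18 over 26 °C read -1.95 and -1.51. Its 2 probes gave nearly the same difference, 2.11 and 2.09, and both placed replicate 2 at 18 °C lowest, at -1.97 and -1.89. Its paralogue gpx4b gave 0.78 ± 0.29 (adjusted p = 0.341). The other measured genes of the family differed in sign, with gpx8 at -0.82 ± 0.23 (adjusted p = 0.207), gpx3 at 0.23 ± 0.11, gpx9 at 0.13 ± 0.08 and gpx7 at -0.0042 ± 0.04, none of them called.

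The copper and zinc superoxide dismutase gene sod1 separated 18 °C from the warmer samples. Levels were -0.57 and -1.06 at 18 °C, 0.15 and 0.62 at 26 °C, and 0.41 and 0.11 at 34 °C. The 26 and 34 °C pairs overlapped and the 18 °C pair lay below both. The difference was 1.08 ± 0.25 at 34 °C against 18 °C (limma adjusted p = 0.145) and -1.20 ± 0.25 at 18 °C against 26 °C (adjusted p = 0.581), neither called. At 34 °C against 26 °C it was -0.12 ± 0.25 (95% confidence interval -0.77 to 0.53), and its probes gave opposite signs there, 0.38 and -0.63. Averaged over probes, the array of 34 over 18 °C read 1.098, those of 34 over 26 °C read -0.05, -0.38 and -0.20, and those of 18 over 26 °C read -1.996 and -0.90. On the array of replicate 2 at 34 °C over replicate 2 at 26 °C the single probes read 0.83 and -1.59.

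Catalase, the peroxisomal enzyme that splits hydrogen peroxide, had the widest spread within a pair. The levels of cat were -0.26 and -1.28 at 18 °C, 0.26 and -0.35 at 26 °C, and 2.0996 and -0.19 at 34 °C. Replicate 1 at 34 °C was highest by far and replicate 2 at 18 °C lowest, while replicate 2 at 34 °C lay within the range of the 26 °C pair. The difference at 34 °C against 18 °C was 1.72 ± 0.85 (limma adjusted p = 0.529) and was 0.58 without replicate 1 at 34 °C. At 34 °C against 26 °C it was 1.00 ± 0.85 (adjusted p = 0.896), and it turned to -0.14 without replicate 1 at 34 °C. The array of 34 over 18 °C read 2.70, and those of 34 over 26 °C read 1.07 and 2.42 with replicate 1 of 34 °C and 0.51 with replicate 2. At 18 °C against 26 °C the value was -0.72 ± 0.85 (adjusted p = 1.00).

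**Figure D4:**
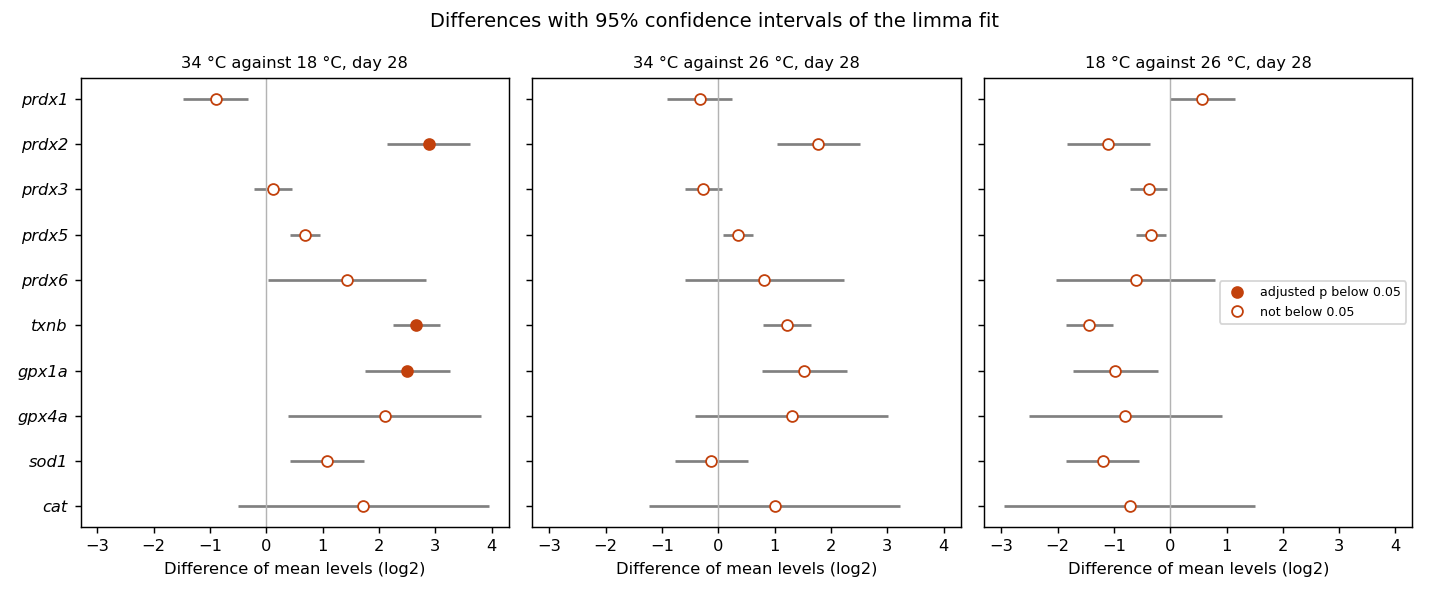
Differences of mean levels (log2, x axis) for the 10 genes in the 3 comparisons of day 28, with 95% confidence intervals of the limma fit. Filled points have an adjusted p below 0.05 over all features, which only prdx2, txnb and gpx1a reach, at 34 °C against 18 °C. Wide intervals of cat, gpx4a and prdx6 go with replicates that lie far apart.

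Warming is addressed by 34 °C against 26 °C. The median of the 10 genes was 0.91, with 7 positive and 3 negative values (prdx1, prdx3 and sod1). Limma called 0 of the 10, as it called 0 of all features (0%). An unadjusted p below 0.05 was reached by 4 of them, prdx2, prdx5, txnb and gpx1a, against 8.79% of all features. Limma on the arrays directly called prdx2, txnb and gpx1a, and 3.87% of all features. Groups did not overlap for 8 of the 10 genes, against 38.8% of all features. Of the 15548 features with a gene symbol, 2657 did not overlap in the positive and 4311 in the negative direction, together a higher share.

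Cooling is addressed by 18 °C against 26 °C. Here 9 of the 10 genes had negative values, with prdx1 the exception, and the median was -0.76. By size, txnb came first (-1.44), followed by sod1 (-1.20) and prdx2 (-1.10). Limma called 0 of the 10 and 1 of all features (0.00282%), and the fit on the arrays called 0 of the 10 and 0.0818% of all features. Unadjusted p-values below 0.05 belonged to 6 of them, prdx2, prdx3, prdx5, txnb, gpx1a and sod1, against 4.43% of all features. For prdx3 only the average over its probes reached this, since limma on the single probes gave unadjusted p = 0.592 and 0.106. Groups did not overlap for 7 of the 10, against 25.2% of all features. Of the 15548 features with a gene symbol, 2309 did not overlap in the positive and 2660 in the negative direction, together a higher share. Both comparisons use the same 26 °C samples, so their values are not independent of each other.

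Taking the pair means at 18, 26 and 34 °C in order, 7 of the 10 genes had means that were higher at each warmer temperature, prdx1 had means that were lower at each, and prdx3 and sod1 had their extreme at 26 °C. Over all 35434 features, 7912 were ordered upward and 7611 downward.

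The lone sample of 26 °C on day 4 has no replicate and was not tested. It lay above both day 28 samples of 26 °C for 7 of the 10 genes, between them for sod1 and cat, and below both for gpx1a. The share of all features in each of these places was not computed, so the counts are only a description. The widest gap was that of txnb, at 1.22 on day 4 against -0.27 and 0.01 on day 28, which put the day 4 sample within the range of the 34 °C pair. The value of gpx1a was -0.77 on day 4 against -0.02 and -0.10 on day 28, about the level of replicate 1 at 18 °C (-0.78). For prdx2 it was 0.16 against -0.07 and -0.44. On the arrays that carried the day 4 sample, txnb read -3.14 for replicate 1 of 18 °C over day 4 and -0.47 for day 4 over replicate 2 of 34 °C. For gpx1a these arrays read -0.24 and -2.12.

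The wider antioxidant machinery was read from lists of genes around these enzymes. The counts below, at 34 °C against 18 °C, compare with these shares of all features: 50.6% with a positive difference, 13.9% with an unadjusted p below 0.05 and 8.45% called on the arrays directly. All features include probes without a gene symbol. The 15548 named genes had 7077 positive differences, 3634 unadjusted p-values below 0.05 and 2359 calls on the arrays directly. Their shares of such p-values and calls are higher than those of all features. In the thioredoxin and glutaredoxin system, 12 of 19 measured genes had positive differences at 34 °C against 18 °C, the median was 0.08, and limma called 0, with 6 at an unadjusted p below 0.05 and 3 called on the arrays directly. The largest values were 1.65 ± 0.45 for txnipa, a thioredoxin-binding inhibitor (limma adjusted p = 0.198), -1.005 ± 0.29 for glrx5, a mitochondrial glutaredoxin of iron-sulfur assembly, and 0.90 ± 0.19 for msrb2, a methionine sulfoxide reductase. The reductase gene txnrd3 had -0.22 ± 0.15 and prdx4, the peroxiredoxin of the endoplasmic reticulum, had 0.83 ± 0.28.

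Of 27 glutathione genes 18 were positive, with a median of 0.23 and 0 called by limma, 16 at an unadjusted p below 0.05 (13.9% of all features) and 7 called on the arrays directly (8.45% of all features). The largest values were 1.71 ± 0.59 for the microsomal transferase mgst3a, 1.69 ± 0.38 for hagh, a hydrolase of glutathione thioesters, and 1.38 ± 0.39 for mgst1.2, with limma adjusted p-values from 0.139 to 0.306. Of genes for glutathione synthesis and recycling, the values were -0.69 ± 0.23 for gclm, -0.08 ± 0.14 for gclc, -0.21 ± 0.04 for gss and -0.04 ± 0.06 for gsr, and none of these was called.

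A list of other superoxide dismutases and of selenium, copper and further genes set beside them had 6 of 9 positive values and a median of 0.47. Limma called 0, with 5 at an unadjusted p below 0.05 and 3 called on the arrays directly (all features 13.9% and 8.45%). The largest belonged to selenop, a selenium carrier that the liver secretes (2.86 ± 0.72, limma adjusted p = 0.170), sco2, a copper chaperone (-0.78 ± 0.31), and selenop2 (0.75 ± 0.49). None of these 3 is a dismutase. The dismutase genes sod3a and sod2 had 0.68 ± 0.12 (limma adjusted p = 0.0973) and 0.47 ± 0.53 (adjusted p = 0.858). Genes that supply NADPH were split, 6 positive and 7 negative of 13, with a median of -0.03 and 0 called by limma. An unadjusted p below 0.05 was reached by 3 of them and 1 was called on the arrays directly (all features 13.9% and 8.45%). They were led by me3, a malic enzyme (-0.73 ± 0.17), nadk2, a mitochondrial NAD kinase (-0.66 ± 0.18), and taldo1, transaldolase (0.57 ± 0.23).

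Around the stress-response factor Nrf2 and its inhibitor Keap1, 16 of 24 genes were positive, with a median of 0.11. An unadjusted p below 0.05 was reached by 11 of them and 7 were called on the arrays directly (all features 13.9% and 8.45%). The bile conjugate exporter abcc2 was the 1 called in the 2-step fit (0.60 ± 0.07, limma adjusted p = 0.0478), where 0.982% of all features were called. The largest values, none of them called, were 1.74 ± 0.23 for the autophagy receptor sqstm1 (adjusted p = 0.0596), -1.46 ± 0.54 for the ferritin gene fthl28 and 1.04 ± 0.18 for keap1a. The factor nfe2l2a itself had 0.90 ± 0.17 (adjusted p = 0.0959). Peroxisome genes, which share catalase's compartment, were positive in 16 of 22 cases, with a median of 0.19. An unadjusted p below 0.05 belonged to 9 of them, and 6 were called on the arrays directly. The 1 called in the 2-step fit was the fatty acid transporter abcd3a (3.05 ± 0.28, adjusted p = 0.0408). The hydrogen peroxide-producing oxidases uox (1.96 ± 0.38) and hao1 (1.96 ± 0.58) had the next largest values and were not called.

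**Figure D5:**
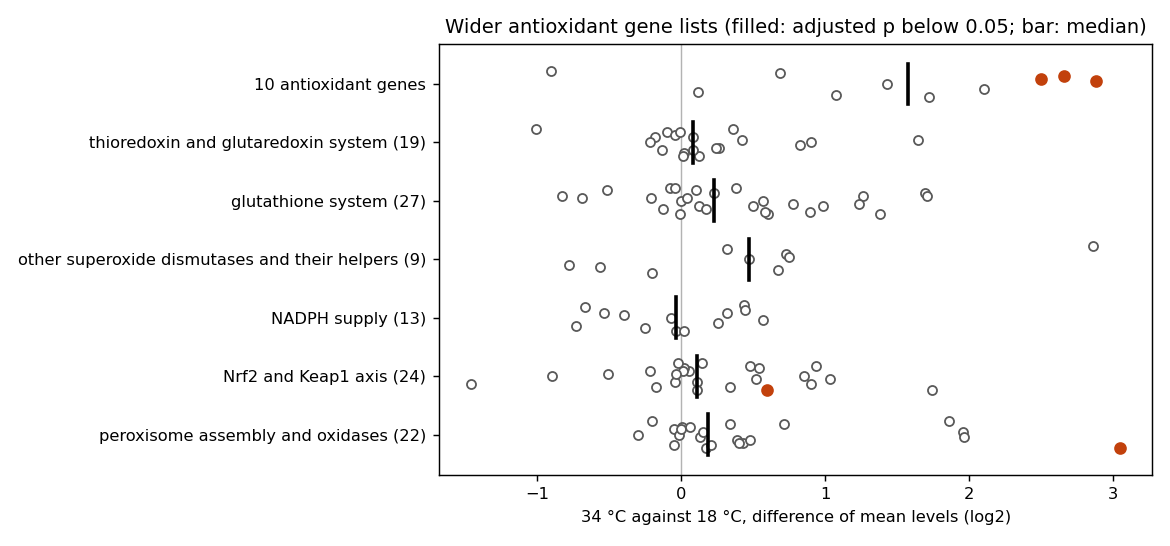
Difference of mean levels at 34 °C against 18 °C (log2, x axis) for the 10 antioxidant genes and for the genes of 6 surrounding lists, with the number measured in brackets. Each point is a gene, filled where the adjusted p is below 0.05, and bars are medians. The medians of the 6 lists lie between -0.03 and 0.47, against 1.58 for the 10 genes. All were chosen with earlier results of these data known. Medians of marker lists, not shown, were 1.56 for hepatocyte and for exocrine pancreas, -2.41 for oocyte and between 0.01 and 0.08 for the rest.

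Among named genes whose levels had an SD at least 0.5 times that of the member, the profiles most like those of the called members over the 7 samples were ranked by Pearson's r. These 7 values share arrays and sum to 0, so r is a description. For prdx2 the nearest were selenou1a (r = 0.987), the dehydrogenase dhrs9 (0.983) and the complement gene c3a.1 (0.979), itself on the hepatocyte marker list, of 975 candidates. For txnb they were the zinc transporter slc39a3 (0.971), the selenoprotein selenow1 (0.964) and zgc:153102 (0.951), of 957. For gpx1a they were the mitochondrial folate carrier slc25a32a (0.984), the glutamate dehydrogenase glud1b (0.983) and aldh6a1 (0.981), of 1200. Among the 10 genes themselves, prdx2 and prdx5 were closest to each other (0.932), and prdx1 and gpx1a the most opposed (-0.838).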

How the data were processed

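The authors deposited a table with 1 log2 ratio per probe and array. Limma was used for it, per the submitters' processing notes, which give no version. Not given in the sources used here are the handling of background, the normalization and any removal of spots. Values were taken as base 2, the base limma uses, although none is stated. No value was missing. Probe names came from the platform annotation, and symbols were updated from a RefSeq table of GRCz12tu. In all 23717 of 43603 probes had a symbol, and unnamed probes were kept as single features. No sequence or coordinate is given, since the array's build is not named.

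Least squares turned each feature's 8 ratios into 7 sample levels plus 1 dye effect, leaving 1 residual degree of freedom. Limma (version 3.58.1, R 4.3.3) then compared the 4 groups on the 7 levels (3 residual and 1.63 prior degrees of freedom), with two-sided p-values adjusted by Benjamini and Hochberg over 35434 features. Levels from shared arrays have correlated errors, which this step ignores, and the number of arrays limits the precision. The steps were run on simulated ratios without array noise and with the same dye term for every feature. That run could not check the effect of such correlated errors. Alternatives were no dye term, scale normalization, limma on the arrays directly, the median over probes, single probes, only the groups compared, the replicate block, and leaving out each sample or array.

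The 10 genes and all lists were chosen with earlier results of these data known. Named genes are the 10 members, the called genes of each pathway list and its 3 largest values at 34 °C against 18 °C. The called genes of each marker list and the 3 nearest profiles of each called member are also named. The genes gpx1b, gpx3, gpx4b, gpx7, gpx8, gpx9, prdx4, txnrd3, gclm, gclc, gss, gsr, sod2, sod3a, nfe2l2a, hbaa2 and hbba2 were added after their values were seen. So were selenoh, selenom and dio2, from the selenoprotein list.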

Additional observations from a re-analysis of the deposited data

How the results depend on the processing

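With 2 samples a group, the calls at 34 °C against 18 °C depended on the fit while the directions mostly did not. The 3 called genes became 0 after scale normalization between arrays, 0 with only the groups compared in the fit, 1 with single probes as features and 7 with limma on the arrays directly, and all called features went from 348 to 0, 0, 226 and 2994 under the same settings. The 3 called genes and 348 called features also stood without the day 4 sample. That sample is alone in its group, so leaving it out repeats the full fit and is no check. Other fits that left out 1 sample or 1 array gave as few as 0 of either. For 34 °C against 26 °C, limma on the arrays directly called 3 of the genes and 1372 features, and leaving out 1 sample or array gave 0 to 2 features. For 18 °C against 26 °C, the 1 called feature became 0 after scale normalization, with single probes, with only the groups compared and with the replicate block, 29 on the arrays directly, and 0 to 1 when 1 sample or array was left out.

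Some alternatives cannot change a member's difference, namely the median over probes, only the groups compared and the replicate block. Neither can leaving out a sample outside the compared groups. Of 630 member values under these alternatives, which include such fixed ones, 17 turned in sign, all of them where 1 sample or array was left out. With 1 sample or array left out, and other alternatives aside, those results ranged over -0.0026 to 0.24 for prdx3 at 34 °C against 18 °C, and at 34 °C against 26 °C -0.19 to 2.00 for prdx2, -0.36 to 0.73 for sod1 and -0.14 to 2.94 for cat. At 18 °C against 26 °C the ranges were -1.88 to 0.30 for prdx2, -1.92 to 0.16 for prdx6, -1.73 to 0.14 for gpx4a and -2.10 to 0.046 for cat. Scale normalization went beyond some of these ranges, with 0.51 for prdx3 at 34 °C against 18 °C and -1.81 for gpx4a at 18 °C against 26 °C. Dropping an array leaves no residual degree of freedom for the levels. Dropping a day 28 sample leaves a lone one in its group, which is assumed to vary like the others. Other causes were not tested.

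The replicate number as a block (paired by number) left 3 of the 10 genes called at 34 °C against 18 °C, txnb, gpx1a and prdx5, and 237 features. The labels do not say that a number marks a shared batch, and deviations of same-numbered samples correlated at 0.415 for 34 and 26 °C, -0.133 for 34 and 18 °C and -0.151 for 26 and 18 °C.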

Other observations

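Selenoprotein genes other than gpx1a and gpx4a were looked at because selenou1a and selenow1 were among the nearest profiles of prdx2 and txnb, so this list was chosen after values were seen and carries no test of its own. Of 29 measured genes of selenoprotein families 20 had positive differences at 34 °C against 18 °C, with a median of 0.25. The only 2 called by limma were those that prompted the list, selenow1 (1.53 ± 0.13, adjusted p = 0.0383) and selenou1a (1.51 ± 0.14, adjusted p = 0.0411). Both were picked for likeness to called members, so their calls are no result about selenoproteins. Of all features 0.982% were called. Levels of selenow1 were 0.75 and 0.57 in the replicates of 34 °C, against -0.74 and -1.002 in those of 18 °C, and those of selenou1a were 0.78 and 0.86 against -0.48 and -0.90. The pairs did not overlap for either gene.

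Other members of these families had negative values of similar size that were not called. The nuclear selenoprotein gene selenoh gave -1.79 ± 0.42 (adjusted p = 0.151) and selenom gave -1.53 ± 0.47 (adjusted p = 0.253). The largest value of the list was that of selenop, given above (2.86 ± 0.72). The deiodinase dio2, which activates thyroid hormone, gave 1.91 ± 0.45 (adjusted p = 0.151). Of 5 measured genes for selenocysteine insertion, 2 were positive and 3 negative, with a median of -0.39 and 0 called.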
